A study of Mus musculus with 2 samples.

Results

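The STAT factors and Janus kinases described here are 9 genes, Stat2, Stat3, Stat5a, Stat5b, Stat6, Jak1, Jak2, Jak3 and Tyk2, of 13781 genes measured. They were chosen by name, as all probes that the scanner files give to these symbols and that are not controls, which made 14 probes in 23 spots. Other STAT genes were not analysed here. The cells were RAW264.7, a macrophage-like line of the mouse, with 1 array of Lamtor1 knockdown cells and 1 of control cells. Lamtor1 is the membrane anchor of Ragulator, a lysosomal scaffold for the kinase complex mTORC1, and the series asks how TFEB, a transcription factor under mTORC1, acts in cells without Ragulator. The labels describe the knockdown as lentiviral short hairpin RNA from a mixture of 2 vectors against Lamtor1, with a limiting dilution after infection. The same protocol text stands with the control. The sources used here do not say what was done to the control cells, or if either sample grew from 1 clone. Both samples were grown in medium with 10% fetal bovine serum.

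Janus kinases sit on the inner side of cytokine receptors and phosphorylate each other, the receptor and then STAT proteins, which pair up, enter the nucleus and bind DNA. Jak1 and Tyk2 serve the type I interferon receptor, Jak1 and Jak2 the interferon gamma receptor, and Jak1 and Jak3 the receptors that share the common gamma chain. Jak2 serves the receptors for GM-CSF, erythropoietin and thrombopoietin. STAT2 joins with IRF9 in the complex that switches on interferon-stimulated genes, STAT3 follows interleukin 6 and interleukin 10, the STAT5 proteins follow GM-CSF and related factors, and STAT6 follows interleukin 4 and interleukin 13. SOCS proteins, whose genes are STAT targets, close the loop by inhibiting the receptor complexes.

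The promoters are shown first because Stat2 alone of these genes holds an interferon-response motif there, and because listed targets of its complex were low in the knockdown. Each window holds the 250 bases before a RefSeq gene start in the GRCm38.p6 build, written 5′ to 3′ on the gene's strand, with motif matches in capitals. The Stat2 window is chr10:128270248-128270497 on the plus strand, that of Isg15, a ubiquitin-like antiviral gene, is chr4:156200819-156201068 on the minus strand, and that of Ifit1, an antiviral RNA-binding gene, is chr19:34640639-34640888 on the plus strand.
Stat2: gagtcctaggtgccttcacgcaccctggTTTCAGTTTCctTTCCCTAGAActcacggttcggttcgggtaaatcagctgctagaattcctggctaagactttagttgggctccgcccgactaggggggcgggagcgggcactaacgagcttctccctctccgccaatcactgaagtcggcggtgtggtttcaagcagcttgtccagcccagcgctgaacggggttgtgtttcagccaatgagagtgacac
Isg15: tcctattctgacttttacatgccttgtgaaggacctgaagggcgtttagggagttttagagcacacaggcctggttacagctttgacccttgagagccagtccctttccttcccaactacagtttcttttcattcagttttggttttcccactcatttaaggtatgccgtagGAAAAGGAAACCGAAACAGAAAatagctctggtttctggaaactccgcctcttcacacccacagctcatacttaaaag
Ifit1: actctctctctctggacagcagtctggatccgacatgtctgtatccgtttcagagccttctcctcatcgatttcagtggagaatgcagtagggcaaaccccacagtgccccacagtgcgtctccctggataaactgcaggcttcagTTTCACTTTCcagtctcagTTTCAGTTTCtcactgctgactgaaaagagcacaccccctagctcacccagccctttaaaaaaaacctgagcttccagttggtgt

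The motifs searched, on both strands, were the core of the interferon-stimulated response element (GAAA, any 2 bases, GAAA) and palindromes of the STAT type (TTC, any 3 or any 4 bases, GAA). Matches could overlap, as the 3 in the Isg15 window do. The interferon motif was present in the windows of 1 of the 9 genes, Stat2, where it reads TTTCAGTTTC and begins 222 bases before the start. It was present in 978 of all 32851 promoter windows (2.98%). The palindrome with 4 inner bases was also present in Stat2 alone of the 9 genes, as TTCCCTAGAA 210 bases before the start, and in 5.85% of all windows. The palindrome with 3 inner bases was in none of the 11 windows of the 9 genes and in 7.02% of all windows. Of 14 listed targets of the STAT2 and IRF9 complex, 11 had a window, in 12 windows, and 6 of these 11 genes (54.5%) held the interferon motif. This share counts genes, while the shares over all promoters count windows. Isg15 and Ifit1, printed above, are among these 6. The windows of Irf7, Oasl2, Ifi44, Xaf1 and Ifit2 did not hold it, and neither did those of Irf9. Whether the motif goes with a lower value was not tested. These are matches of letters and not sites shown to be bound.

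The probes of the array are 60 bases long, and the 2 shown here lie more than 3000 bases upstream of the last probe of their gene, counted along the genome. They are shown because they read Stat6 and Jak3 at a further place, away from the last probe. In the mm9 build of the files the Stat6 probe lies at chr10:127083983-127084042 on the plus strand and the Jak3 probe at chr8:74210801-74210860 on the plus strand.
Stat6: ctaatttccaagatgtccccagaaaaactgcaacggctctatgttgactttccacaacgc
Jak3: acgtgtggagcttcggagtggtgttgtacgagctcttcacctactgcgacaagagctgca
No stretch of over 7 bases was shared by any pair of the 14 probes, the Stat5a and Stat5b probes included. Probes were compared only with each other, and not with the transcript of the other gene. Stat5a and Stat5b are close paralogues, and whether their probes tell them apart was not tested. Stat5b, Stat5a and Stat3 lie next to each other on chromosome 11, with 3165 bases between the Stat5a probe and the nearer Stat3 probe. Stat2 and Stat6 share chromosome 10, and Jak1, Jak2, Jak3 and Tyk2 lie on chromosomes 4, 19, 8 and 9.

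Across the arrays 22745 of 43020 spots (52.9%) were well above background in the knockdown and 22929 (53.3%) in the control, and no spot was saturated. Lamtor1, the targeted gene, had a level of -0.43 in the knockdown and 4.10 in the control, or 4.34% of the control signal. A level is a log2 intensity with the array's own 75th percentile set to 0, and a difference is the knockdown level minus the control level. With 1 array per group no difference has a replicate check, no p-value was computed, and the number of arrays limits the precision. The error given with a difference is the scanner software's own estimate for the spots on both arrays, 0.20 to 0.24 in log2 for the 14 probes. It was 10.0% to 11.9% of the signal on each array, so it hardly differs from probe to probe. It is larger than the spread of repeated spots, given below, and does not cover differences between cultures. Of 10 macrophage markers, all were measured; Cd68, a lysosomal glycoprotein, was 2.33-fold higher and Adgre1, which encodes the F4/80 antigen, 2.95-fold lower. Their summed signal, in multiples of the 75th percentile, was 358 in the knockdown and 414 in the control. Markers of other cells were measured for 2 of 6 T cell, 1 of 6 B cell, 2 of 6 fibroblast and 0 of 6 epithelial genes. The T cell markers summed to 0.793 in the knockdown and 1.02 in the control, and the B cell and fibroblast markers to under 0.1 on both arrays. The part of such cells in the results was not tested, and in bulk RNA fewer cells of a type and less RNA per cell cannot be told apart.

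All 9 genes were expressed on both arrays, and none differed by 2-fold or more. All 14 probes were well above background on both arrays, and none was 2-fold higher or lower, while 3677 of 21864 measured probes (16.8%) passed that fold, 8.46% higher and 8.36% lower in the knockdown. By gene, at the brightest probe, 0 of 9 passed, beside 17.4% of all genes, 9.04% higher and 8.36% lower. Among all genes above background on both arrays, as these 9 are, 11.8% passed. With only 9 genes, a count of 0 is not far from either share. Nor did any of the 14 probes or 9 genes reach 1.5-fold with the scaling used here, which 31.3% of all measured probes and 31.5% of all genes did. Under another scaling Stat5a and Jak2 each passed 1.5-fold, as given in the section on processing. The median difference of the 14 probes was 0.07, with 11 above 0 and 3 below, beside -0.07 for all measured probes. Their median difference in size, without sign, was 0.17, beside 0.35 for all probes. In this median 4 genes with several probes weigh more, as they hold 9 of the 14 probes. By gene the median size was 0.35 over the 9 genes and 0.34 over all genes, so the 9 differed about as much as a typical gene. The 9 genes ran from -0.56 for Jak2 to 0.53 for Stat5a.

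**Figure D1:**
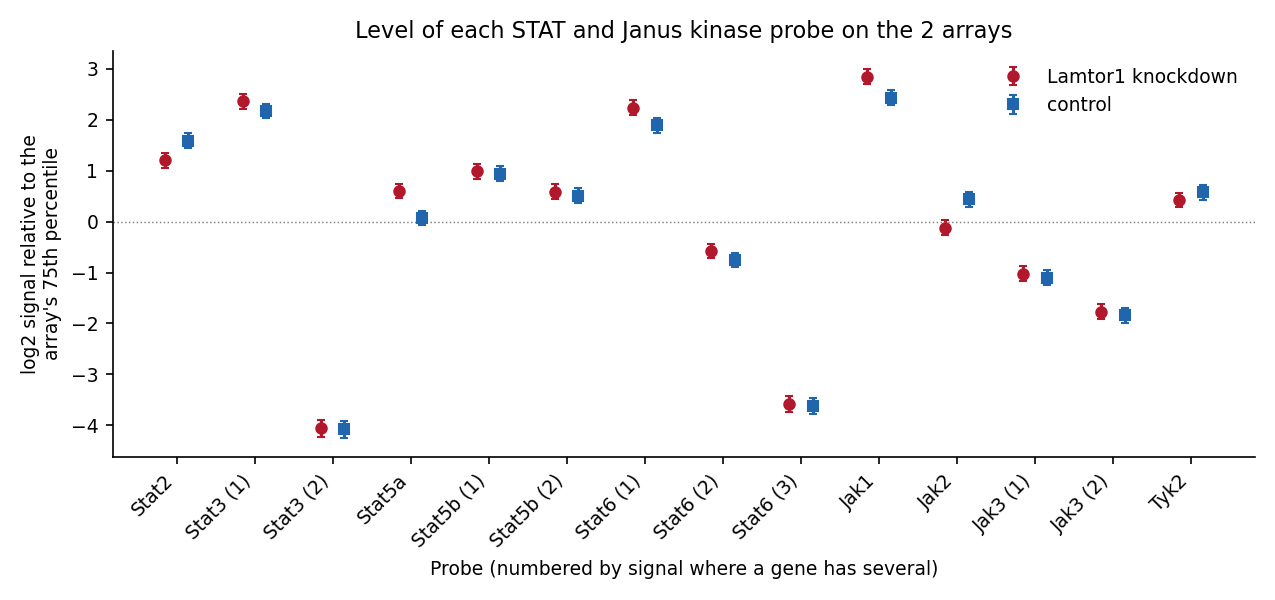
Level of each of the 14 probes, as log2 signal relative to the 75th percentile of the array, in Lamtor1 knockdown (red circles) and control (blue squares), with 1 scanner error as the bar. The pairs of points lie close together, and the widest gaps are those of Jak2, lower in the knockdown, and Stat5a, higher in it.

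Jak2 and Jak1 differed in opposite directions. Jak2 had a level of -0.12 in the knockdown and 0.44 in the control, so that the knockdown signal was 67.9% of the control. Its difference was -0.56 with an error of 0.20, or 1.47-fold lower. Jak1, the kinase shared by most cytokine receptors, had a level of 2.85 in the knockdown and 2.44 in the control, a difference of 0.41 with an error of 0.20, or 1.33-fold higher. The Jak1 difference thus lay 0.97 above that of Jak2, with an error of 0.29. Each of these genes has a single probe in a single spot. Among all measured probes 17.7% were as low as Jak2 or lower, and 19.3% were as high as Jak1 or higher.

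Tyk2, the partner of Jak1 at the type I interferon receptor, had a level of 0.42 in the knockdown and 0.58 in the control. Its difference of -0.15 was smaller than its error of 0.20. Jak3, the kinase bound to the common gamma chain, had 2 probes 3284 bases apart. The brighter had a level of -1.02 in the knockdown and -1.10 in the control, and the other -1.77 in the knockdown and -1.84 in the control. Their differences were 0.08 and 0.07, each well under the error. At both places of the Jak3 gene the arrays thus gave nearly the same value. Over the 4 kinases the median difference was -0.04, with 2 genes above 0 and 2 below.

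Of the STAT genes, 4 were above 0 and Stat2 was below it. Stat2 had a level of 1.21 in the knockdown and 1.59 in the control, a difference of -0.38 with an error of 0.20, or 76.8% of the control signal. Of all measured probes 46.5% had a difference of that size or larger. Stat5a had a level of 0.60 in the knockdown and 0.07 in the control. Its difference of 0.53 with an error of 0.20, or 1.45-fold higher, was the highest of the 9 genes, and 15.6% of all measured probes were as high or higher. Stat5b had levels of 0.99 and 0.59 at its 2 probes in the knockdown, against 0.94 and 0.51 in the control. Its differences of 0.05 and 0.08 were within the error, and the Stat5a difference lay 0.48 above that of the brighter Stat5b probe, with an error of 0.29.

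Stat6, the interleukin 4 factor, was read by 3 probes, all with a difference above 0. The brightest had a level of 2.24 in the knockdown and 1.90 in the control, a difference of 0.35 with an error of 0.20. The probe 1995 bases upstream had a level of -0.58 in the knockdown and -0.75 in the control, a difference of 0.18. The most upstream probe, printed above, had levels of -3.58 in the knockdown and -3.62 in the control, a difference of 0.04 with an error of 0.22. The 3 values thus agreed in direction, and 1 of them exceeded its error.

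Stat3 offers the closest look at the measurement, because 1 of its probes was printed in 10 spots. In the knockdown these spots ran from 6206 to 6861 intensity units with a median of 6361, and in the control from 5162 to 5471 with a median of 5296. On the scaled log2 axis the knockdown spots averaged 2.36 ± 0.05 and the control spots 2.18 ± 0.03 (SD, 10 spots each), and the spots of the arrays did not overlap. Spot by spot the difference ranged from 0.14 to 0.28 and averaged 0.19 ± 0.04 (SD over 10 spots of 1 array per group). These spots share their RNA, so their spread is that of spotting and scanning alone. Over 216 repeated probes the median SD of such a spot difference was 0.04. The other Stat3 probe had a level of -4.06 in the knockdown and -4.08 in the control, a difference of 0.02. Stat3 was thus 1.14-fold higher at its bright probe, by less than the scanner's estimate of error, and near equal at the dim one.

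**Figure D2:**
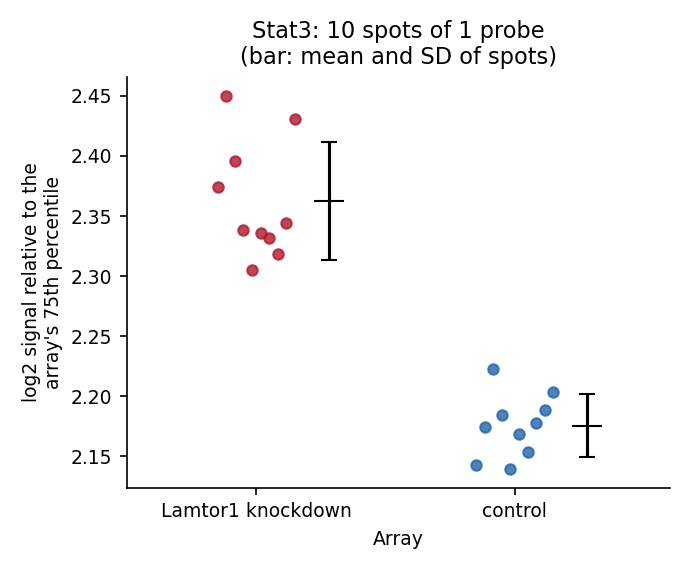
Scaled log2 signal of the 10 spots of the bright Stat3 probe in Lamtor1 knockdown (left) and control (right), with mean and SD over spots beside them. The knockdown spots average 2.36 and the control spots 2.18, and no knockdown spot lies as low as a control spot.

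Set against the scanner's error, 3 of the 14 probes differed by more than 2 errors, those of Jak2, Stat5a and Jak1. Of all measured probes 8326 of 21864 (38.1%) did. The 9 probes of the genes with several probes lay between 0.02 and 0.35, all above 0.

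**Figure D3:**
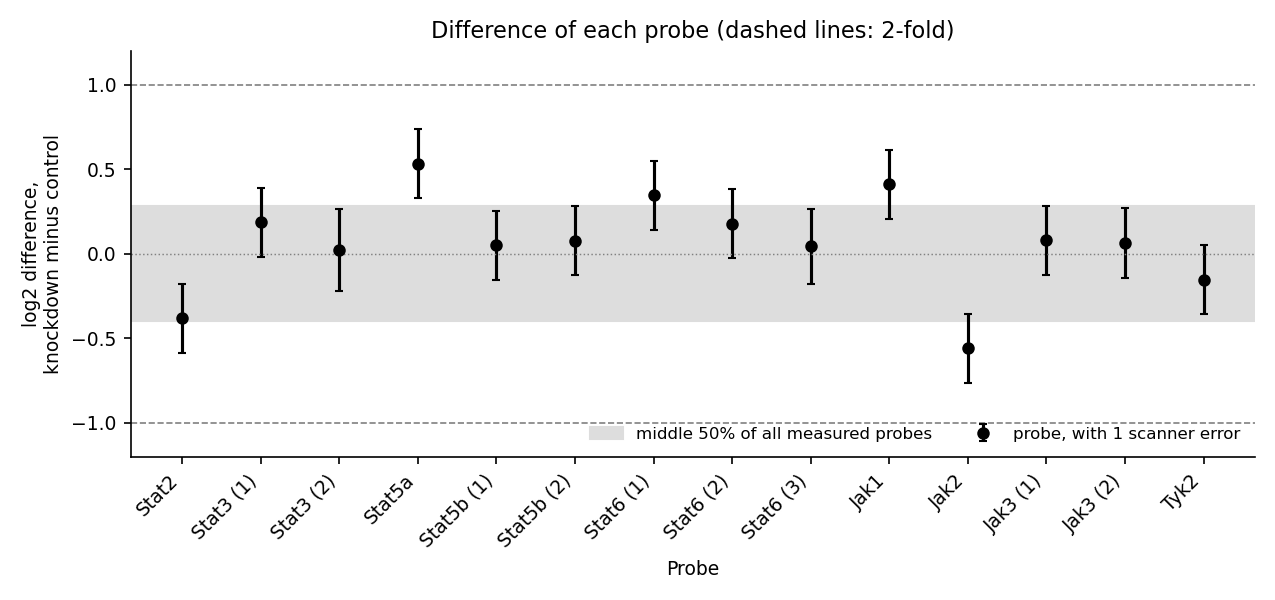
Log2 difference, knockdown minus control, of each of the 14 probes with 1 scanner error, over the band that holds the middle 50% of all measured probes. No probe reaches the dashed 2-fold lines, and Jak2, Stat5a, Jak1 and the first Stat6 probe lie outside the band.

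The rest of the pathway was described through 12 lists of receptors, ligands, inhibitors, partners and targets, chosen with earlier results of these data known. Of 150 distinct genes 111 were measured, and by the plain fold 15 of these were past 2-fold upward and 24 downward (35.1% together), beside 17.4% of all genes. A gene well above background on 1 array only is given as a bound, "at least N-fold". With such genes at their bound 11 were higher by 2-fold or more and 23 lower (30.6% together), beside 14.6% of all genes, and the counts by list below are of this kind. In both counts 12 of the lower genes are from the list of STAT2 and IRF9 targets. That list was chosen with interferon genes known to be low. The median difference of all genes was -0.05. Bounds are of the processed intensity, and the fold after normexp, a different way to correct background, can be smaller.

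Of the interferon receptor list 1 of 6 genes, Il10rb, was past 2-fold, and the median was 0.08. Ifnar1 and Ifnar2, the chains that hold Tyk2 and Jak1 and are named here outside the naming rule, had differences of -0.17 and -0.40. Ifngr1 and Ifngr2, named likewise as the interferon gamma receptor, had -0.76 and 0.34. Il10rb, a chain shared by the receptors for interleukin 10 and interferon lambda, was 2.05-fold higher, and within 2-fold when scaled on probes above background on both arrays. Ifnlr1, dim in the control, was at least 1.31-fold higher, and 1.46-fold with normexp. Il10ra, the other interleukin 10 receptor chain, was 6.69-fold lower, with a level of -0.34 in the knockdown and 2.40 in the control, and was the 1 gene of 8 past 2-fold in the list of other receptors, whose median was 0.56, or 0.42 with bounds.

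The receptors that share the common gamma or beta chain had a median of 0.64, and 3 of the 10 measured were past 2-fold, all higher. Il7r, the interleukin 7 receptor and a partner of Jak1, had a level of 2.99 in the knockdown and -2.26 in the control and was 38.2-fold higher. With normexp Il7r was 29.6-fold higher. Csf2rb and Csf2rb2, the beta chains of the GM-CSF and interleukin 3 receptors, which hold Jak2, were 2.34-fold and 7.16-fold higher. At the other probe of each gene the difference was 0.91 for Csf2rb, under 2-fold, and 2.08 for Csf2rb2. These paralogues are close in sequence, and whether the probes tell them apart was not tested. Il2rg, the common gamma chain itself and the anchor of Jak3, had a difference of 0.84 and is named outside the rule.

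Of 7 measured receptors of the gp130 family 1 was higher by 2-fold or more and 1 was lower, and the median was -0.49. Il11ra1, the interleukin 11 receptor, was 5.34-fold higher. Il27ra, not well above background in the control, was at least 1.67-fold higher, or 1.27-fold with normexp. Lifr, the receptor of leukaemia inhibitory factor, which was dim in the knockdown, was at least 3.48-fold lower, or 2.16-fold with normexp.

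Most ligand genes were dim, and 9 of 25 were measured, with a median of 0.21. Of these Epo was higher by 2-fold or more and Il13 lower, and they and the 3 other ligands named here were above background on 1 array only. Epo, Csf3 and Il5 were at least 2.48-fold, 1.69-fold and 1.57-fold higher, and with normexp each was under 2-fold. Il13 and Lif were at least 4.49-fold and 1.83-fold lower, or 2.33-fold and 1.62-fold with normexp. Ifnb1 and Ifng were not well above background on either array.

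Among the inhibitors, Socs3, the feedback inhibitor that STAT3 induces, was 3.76-fold lower, with a level of -1.55 in the knockdown and 0.37 in the control. It was the 1 of 6 measured SOCS genes past 2-fold, and the median of that list was -0.53. Of 14 phosphatase, PIAS and other inhibitor genes 12 stayed within 2-fold, and the median was 0.27. Usp18, an interferon-induced protein that blocks the type I interferon receptor, was 5.77-fold lower, and Cblb, a ubiquitin ligase, 6.73-fold higher. Of 11 adaptors and coactivators 10 stayed within 2-fold, with a median of -0.16. The exception was Irf9, the DNA-binding partner of STAT2, which was 2.92-fold lower, with a level of 0.42 in the knockdown and 1.97 in the control.

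Of 13 measured targets of the STAT2 and IRF9 complex, all had a difference below 0 and 12 were at least 2-fold lower, with a median of -2.90, or -2.77 with 4 genes at their bound. Those 4 genes, Ifit1, Mx2, Oasl2 and Rsad2, were above background in the control alone, so the filter fixed their direction. The other 9 were above background on both arrays, and of them only Oas1a was within 2-fold. Irf7, an interferon-induced transcription factor, was 23.7-fold lower, at a level of -4.28 in the knockdown and 0.29 in the control. Mx2 and Oasl2, antiviral genes that were dim in the knockdown, were at least 22.1-fold and 17.6-fold lower. Ifi44 was 12.1-fold lower, and Isg15, whose promoter is printed above, 7.80-fold lower. Ifit1, printed with it, was at least 3.86-fold lower. With normexp 9 of the 13 genes were at least 2-fold lower, and the folds were 11.4 for Irf7, 8.20 for Mx2, 4.99 for Oasl2 and 1.64 for Ifit1. Interferon genes were known to be low on this knockdown array when the list was drawn up, so its count is no independent evidence of direction. Beside these values the Stat2 signal was 76.8% of the control.

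The STAT3 and STAT5 target lists lay near 0, with medians of 0.03 and -0.22. Of 15 measured STAT3 targets 2 were at least 2-fold higher and 2 lower, and of 9 STAT5 targets 1 was higher and 1 lower. Bcl2l1, the survival gene that encodes BCL-XL and stands in both lists, was 2.77-fold higher. Mcl1, another survival gene, was 2.10-fold higher. Besides Socs3, the lower genes were Fos, at 2.04-fold, and Ccnd1, the cyclin D1 gene, at 2.04-fold, and with normexp or median scaling both were within 2-fold.

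Of 9 measured STAT6 targets 2 were higher by 2-fold or more and 3 were lower, and the median was -0.66. Tgm2, a transglutaminase, had a level of 2.57 in the knockdown and -2.92 in the control and was 45.0-fold higher, or 32.0-fold with normexp. Mrc1, the mannose receptor, was 2.31-fold higher, or 1.69-fold with normexp. Klf4, a transcription factor, was 47.1-fold lower, or 20.5-fold with normexp. The lectin genes Clec10a and Mgl2 were 24.0-fold and 2.02-fold lower, the second within 2-fold with normexp or median scaling. With normexp Clec10a was 16.3-fold lower. Arg1, Chil3 and Retnla, usual readouts of interleukin 4 in macrophages, were not well above background on either array.

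**Figure D4:**
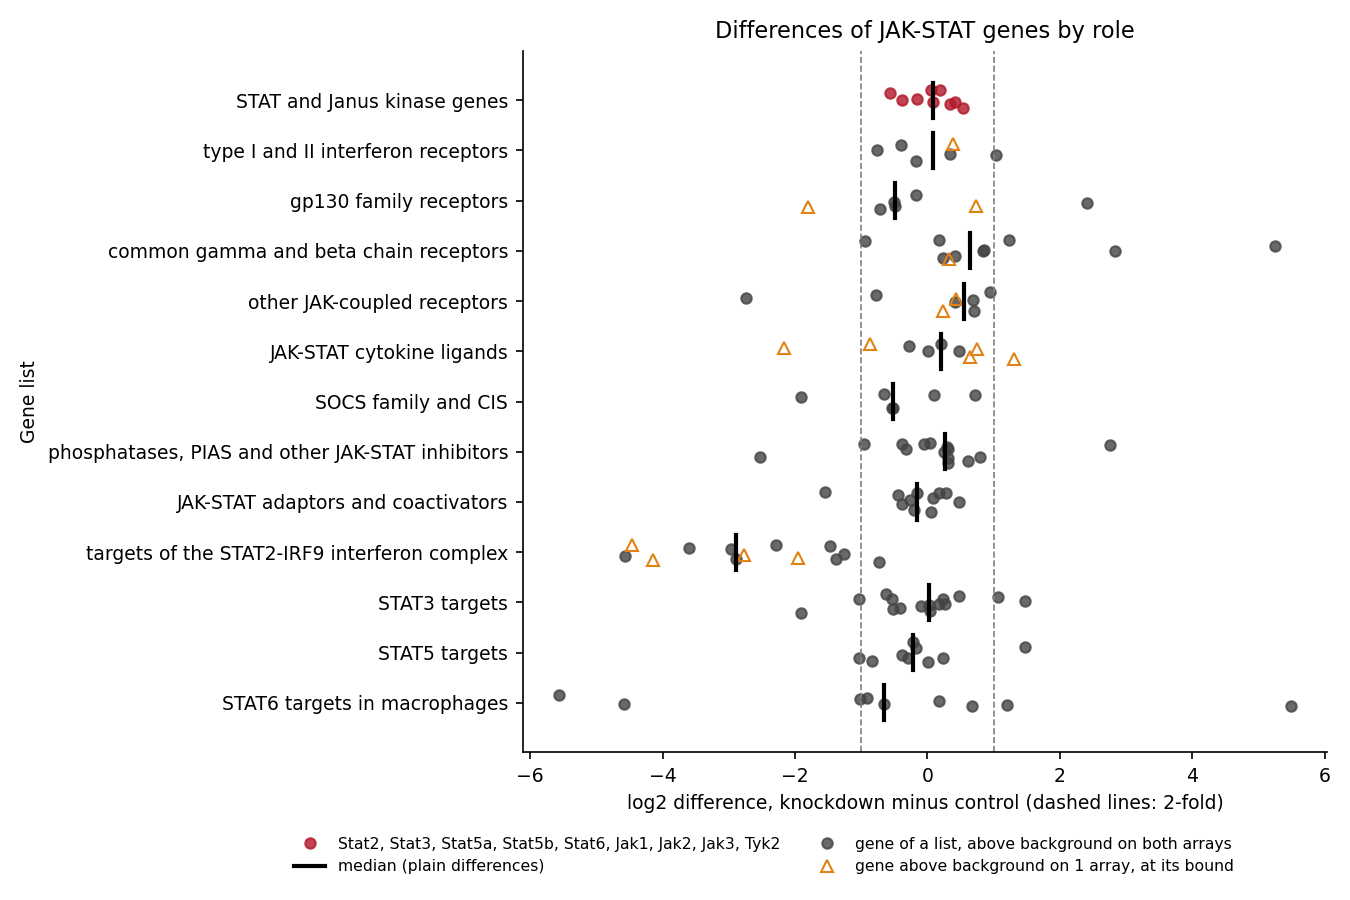
Log2 difference, knockdown minus control, of the 9 STAT and Janus kinase genes (red, top row) and of the measured genes of 12 pathway lists, with genes above background on 1 array at their bound (triangles) and the median of the plain differences as a bar. The 9 genes lie between -0.56 and 0.53, while 12 of the 13 targets of the STAT2 and IRF9 complex lie past the 2-fold line. Of these 13, 9 were above background on both arrays, and the direction of the rest was fixed by the filter.

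The direction of each of the 9 genes was the same under 10 other settings. Some of these settings could not move it: the other filters on dim probes and outlier spots kept left all 9 values unchanged. Jak2 ranged from -0.60 to -0.47, Stat5a from 0.49 to 0.62, Jak1 from 0.37 to 0.50 and Stat2 from -0.42 to -0.29. Stat6 ranged more widely, from 0.18 to 0.44, as its probes differ. Stat5b came nearest to 0, at 0.01.

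**Figure D5:**
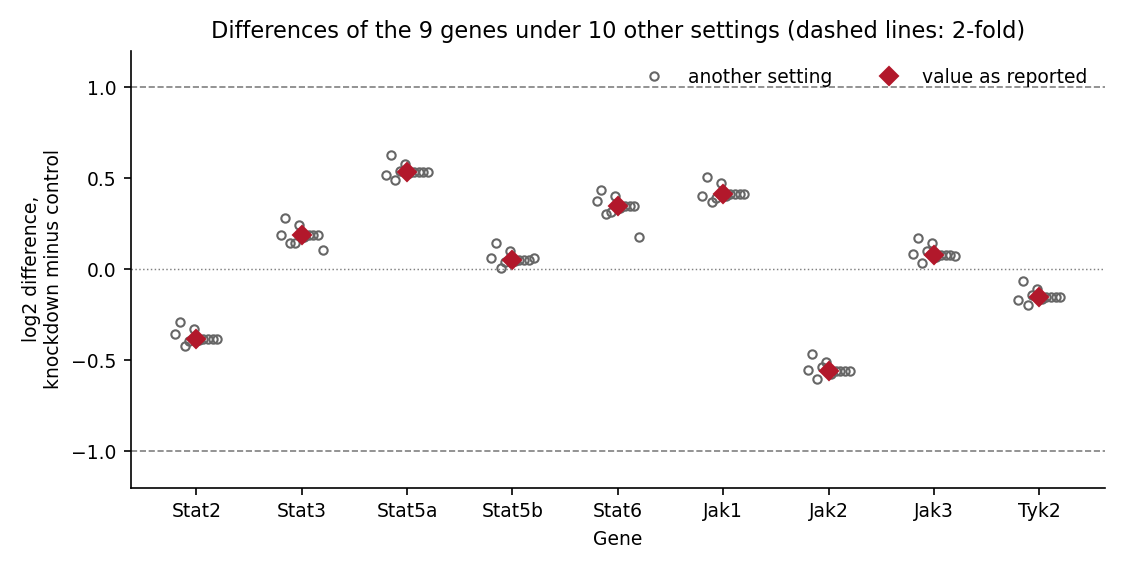
Log2 difference of each of the 9 genes as reported (red diamonds) and under 10 other settings of background correction, scaling, filter and probe choice (open circles). Every circle lies on the same side of 0 as its diamond and inside the 2-fold lines. Circles of the other filters on dim probes and of outlier spots kept equal their diamond.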

How the data were processed

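Total RNA was copied from oligo-dT primers and carried Cy3 alone, per the labels, so the arrays have 1 colour. Values in the deposited scanner files are a linear intensity for every spot, and the submitters' processing notes name Agilent Feature Extraction 10.7.3.1. The intensity was detrended within the array, per the file headers, surrogates replaced signals not above background, both arrays share 1 slide and 1 scan, and probe positions are on mm9. The deposited value table gives this intensity again at 3 significant digits, linear and not centred, with medians of 34.4 in the knockdown and 34.2 in the control.

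Groups came from the labels. Spots marked as outliers on either array (177 knockdown, 162 control) were dropped from both. Each array was scaled on the log2 axis to its 75th percentile, 1255 in the knockdown and 1172 in the control, and spots of a probe were averaged. A probe was measured where over 50% of its spots were well above background on at least 1 array, which left 21864 probes. A gene took its brightest measured probe. The 9 genes were found by symbol in the files. For the lists, 30180 of 39429 probes were named through a RefSeq table of GRCm38.p6 (26055 by accession, 3195 by symbol, 930 by older symbol). Bounds compare the bright array with a floor on the dim one, either its weakest spot well above background or the probe itself if that was brighter. Differences were called at 2-fold, with no test. limma 3.58.1 in R 4.3.3 gave the normexp (offset 50), quantile and cyclic loess alternatives. Genes were named by rule: all 9 genes, and in each list up to 5 in each direction past 2-fold. The genes and lists were chosen with earlier results of these data known. The calculation was tested on simulated data. The sequence of 1 Stat3 probe is not reported here.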

Additional observations from a re-analysis of the deposited data

How the results depend on the processing

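None of the 9 genes and none of their 14 probes reached 2-fold under any alternative run: normexp, median scaling, the 75th percentile over probes above background on both arrays, quantile or cyclic loess normalization, the deposited value table, outlier spots kept, or either other filter on dim probes. By gene, none reached 2-fold with the median over probes either. None reached 1.5-fold as reported. Past 1.5-fold were Stat5a with median scaling, at 0.62, and Jak2 with the 75th percentile over probes above background on both arrays, at -0.60. All 90 recomputed gene differences kept their sign and moved by less than the scanner error. The largest of the 90 differences in size was the 0.62 of Stat5a. Not all of the 90 could move. Keeping outlier spots left all 9 values unchanged. The other filters on dim probes could not change them, as all 14 probes were above background on both arrays. The median over probes can move only genes with several probes, and the deposited table holds the same intensity, rounded. By single probe, the dim Stat3 probe was -0.02 with the 75th percentile over probes above background on both arrays. The pathway lists held 39 genes past 2-fold by the plain fold, 34 with genes above background on 1 array at their bound, and 26 with normexp. At 1.5-fold they held 60. These counts are of the same 111 measured genes. The lists held 27 among genes above background on both arrays and 47 without a filter. The other filters change the set of measured genes, and no share of the lists is given for them. Over all genes, the counts were 1246 higher and 1152 lower (17.4% together), but 789 and 613 with normexp (10.2%). For genes above background on both arrays they were 794 and 693 (11.8%). Without a filter they were 1657 and 1760 of 22801 genes (14.99%), and at 1.5-fold 2121 and 2225 (31.5%). The median of all genes ran from -0.09 to 0.04 across the scalings. No paired analysis was possible because each group has 1 array. Signal over background limits genes above background on 1 array only, which have a bound and no fold.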

Other observations

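The 3 protein-coding genes on each side of the 7 places where these genes lie, in the order of the GRCm38.p6 table, gave 32 measured neighbours, of which 2 were higher by 2-fold or more and 3 lower (15.6%, beside 17.4% of all genes). Next to the cluster of Stat5b, Stat5a and Stat3, Cavin1 had a log2 difference of -0.05 and Atp6v0a1, a subunit gene of the lysosomal proton pump, of 2.19. B3gnt3, near Jak3, had 1.61. Nemp1, near Stat6, had -2.03, Cachd1, near Jak1, had -2.05, and Niban3, near Jak3, had -1.24. The genes on either side of Jak2, Rcl1 and Insl6, had -0.32 and 0.52, and those beside Tyk2, Raver1 and Cdc37, had -0.02 and -0.12. The neighbours were picked by position, after other values were known.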
